A study of Mus musculus with 12 samples.

Results

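The response to LPS plus IFNγ was measured in bone marrow-derived macrophages (BMDMs) of *Keap1* conditional knockout (KpCKO) mice. It was read from 4 of the 12 arrays of the series, 2 of M1-stimulated and 2 of untreated (Con) KpCKO BMDMs, chosen by their labels and paired by culture. The series compared WT and KpCKO BMDMs in the untreated, M1 and M2 (IL-4) states on 1-colour Agilent mouse arrays, to ask how Nrf2 acts on macrophage activation. KpCKO cells came from *Keap1* flox/flox::*LysM*-Cre mice, in which Cre is made from the lysozyme M locus and deletes *Keap1* in myeloid cells. All 4 arrays are of this genotype, and how complete the deletion was in the cultured cells was not measured here. The mice were C57BL/6 animals aged 8 weeks, and each of the 2 cultures held 1 KpCKO and 1 WT mouse. Culture 1 came from male and culture 2 from female mice. The marrow cells were grown for 7 days with M-CSF, the growth factor of macrophages, and the M1 cells then received LPS (5 ng per ml) together with IFNγ (10 ng per ml) for 6 h, while the Con cells did not. The WT Con and WT M1 arrays, 2 of each, are given beside them where a response is called kept. Levels are log2 signals relative to the 75th percentile of the array, so 0 stands for the signal at that percentile, and changes are M1 minus Con on this log2 scale, on which 1 is a 2-fold change.

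LPS, a cell wall component of Gram-negative bacteria, is sensed by Toll-like receptor 4 and switches on NF-κB and AP-1 within minutes, and through the adaptor TRIF also IRF3 and the gene of interferon β. IFNγ acts through its receptor on genes with GAS elements and raises IRF1, and interferon β acts through its own receptor on genes with ISRE elements. Together these signals give the M1 state, with cytokines, chemokines, antimicrobial enzymes and antigen presentation. Keap1 is the adaptor that sends Nrf2 to degradation, and without it Nrf2 accumulates and raises antioxidant and NADPH-making genes before any stimulus.

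The 75th percentile of the signal lay between 787 and 1074 on the KpCKO arrays, and between 64.6% and 71.4% of the probes were well above background. On the WT arrays it was 1143 and 1023 in Con and 757 and 548 in M1, in cultures 1 and 2. There 70.6% and 67.8% of the probes were well above background in Con, and 59.3% and 66.0% in M1. With 2 arrays per group precision is low throughout, and each culture held a single mouse of each genotype. The limma p-values rest on the spread left after group and culture over all 12 arrays, WT and M2 included. They do not measure the spread between the KpCKO cultures alone. The 4 M1 arrays of both genotypes lay on a slide of their own, as did the 4 Con arrays, so that M1 and slide cannot be told apart. In a culture, fewer cells that express a gene and less RNA per cell cannot be told apart either. Of 10 macrophage markers 9 were matched to a probe and all 9 were above background on the 4 arrays. Among markers of other cells, the linear signals of 10 neutrophil genes summed to 18.3 and 9.60 times the 75th percentile in Con and to 13.6 and 8.99 in M1 in cultures 1 and 2, with *Elane* at background, and those of 7 fibroblast genes to 54.4 and 28.7 in Con and to 42.1 and 25.0 in M1. Both sums followed the culture more than the stimulus. The sum of 8 T cell genes went from between 0.441 and 0.514 to between 1.85 and 2.02, mostly by *Lck*, while *Cd3d* stayed at background. Their part in the results was not tested.

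*Keap1* itself was at 1.79 and 1.71 in KpCKO Con and at 2.61 and 3.04 in KpCKO M1, against 3.26 and 3.16 in WT Con and 4.28 and 4.80 in WT M1. On each stimulus and culture the KpCKO array was the lower one, while the probe still gave a signal above background. Whether this probe lies in the deleted part was not analysed here. The signal rose with M1 by 1.08 (SE 0.238, limma's adjusted p = 0.00845) in KpCKO and by 1.34 in WT. In KpCKO the adjusted p reached 0.0624 among the alternative settings. *Nfe2l2*, the gene of Nrf2, rose in KpCKO from 4.82 and 4.98 to 6.03 and 5.76 (SE 0.162, adjusted p = 0.00213), with a change of 0.36 and an adjusted p of 0.119 after quantile normalization.

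KpCKO BMDMs answered M1 with large changes in both directions. A gene was counted as risen when it was more than 2-fold higher in M1 in each KpCKO culture and well above background on both M1 arrays. By this rule 2223 of 22362 genes tested rose (9.94%) and 2393 fell by the mirror of this rule (10.7%). By their signals 457 genes rose more than 8-fold in both cultures and 168 fell as far, and for more than 32-fold the numbers were 118 and 15. Background hides the reach of a fall more often than that of a rise. There were 919 genes above background on both KpCKO Con arrays and at background on both M1 arrays, against 160 the other way. By limma's test with the culture as a block, 11229 genes changed (50.2%), of which 5545 were higher (24.8%) and 5684 lower (25.4%). The median change of all genes was 0.029, and it moved by −0.116 after quantile normalization and by 0.132 after a normexp correction of the background. Changes of single genes are to be read against these shifts. The KpCKO cultures gave much the same response, with a Pearson correlation of 0.903 over 22243 genes, although genes are no independent replicates, and the same sign for 85.4% of them.

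**Figure D1:**
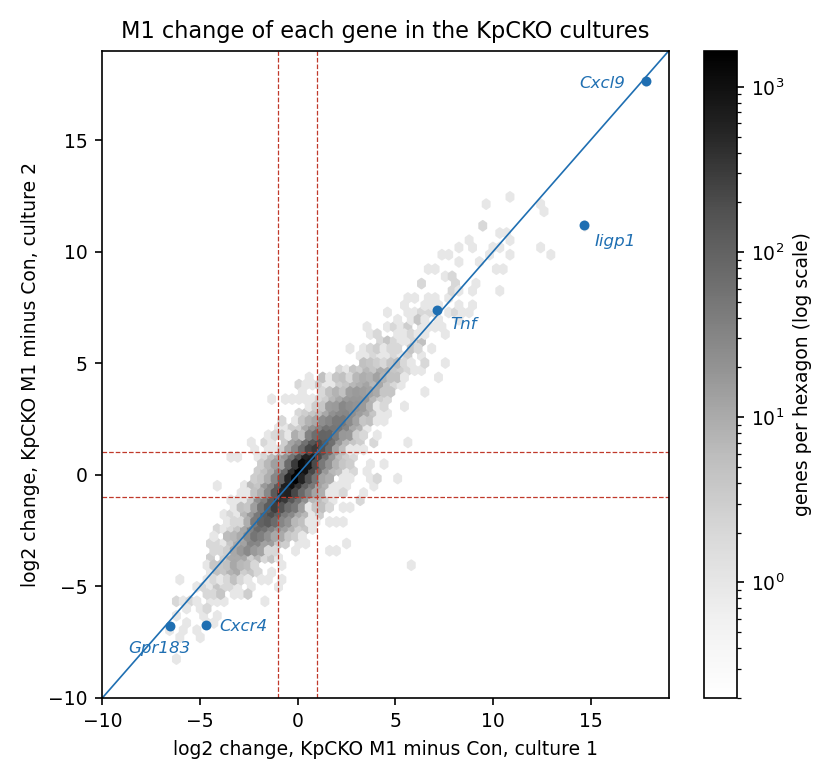
Log2 change from Con to M1 of each gene in KpCKO culture 1 (x axis) and culture 2 (y axis). Shading gives the number of genes per hexagon on a log scale, dashed lines mark a 2-fold change, the solid line marks equal change, and 5 genes are named. The genes lie along the line (r = 0.903), *Tnf* on it with 7.15 and 7.38, and *Iigp1*, with 14.67 and 11.20, below it. *Cxcl9* was at background in Con, so its position is not a measured size.

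The 10 largest measured rises came from several of the lists used below and from outside them. *Iigp1*, an immunity-related GTPase that attacks the vacuoles of intracellular parasites, went from −6.39 and −2.78 in KpCKO Con to 8.28 and 8.42 in KpCKO M1, a rise of 12.93 (SE 0.846, adjusted p = 5.07e-05). *Cxcl10*, a chemokine that attracts activated T cells through CXCR3, went from −4.77 and −1.24 to 8.20 and 8.54 and rose by 11.38 (SE 0.844, adjusted p = 8.31e-05). *Tgtp1*, another GTPase of this family, went from −4.94 and −2.65 to 7.59 and 7.55 and rose by 11.36 (SE 0.537, adjusted p = 1.66e-05). For these 3 genes the M1 arrays lay close together, whereas the Con array of culture 1 was far below that of culture 2, so that the sizes of the rises differ between the cultures through the Con level.

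The next rises were steadier across the cultures. *Cfb*, complement factor B of the alternative pathway, rose by 10.67 and 10.96, from −4.38 and −4.32 to 6.30 and 6.64. *Ifi205*, of the interferon-induced DNA-sensing family, rose by 10.79 and 10.63, and *Gbp5*, a guanylate-binding protein that promotes inflammasome assembly, by 10.73 and 9.82. *Oasl1*, an OAS-like protein that restrains translation of *Irf7*, rose by 10.45 and 10.09. *Cd69*, an early activation antigen, rose by 10.00 and 10.30, and *Cd40*, the receptor for CD40 ligand of T cells, by 10.37 and 9.19. *Il6* completed the 10 with levels of −5.65 and −5.66 in Con and 3.18 and 4.96 in M1. Its rise was 9.72 (SE 0.488, adjusted p = 2.06e-05), 8.83 in culture 1 and 10.62 in culture 2. The Con and M1 arrays did not overlap, which the choice of the largest rises fixes.

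**Figure D2:**
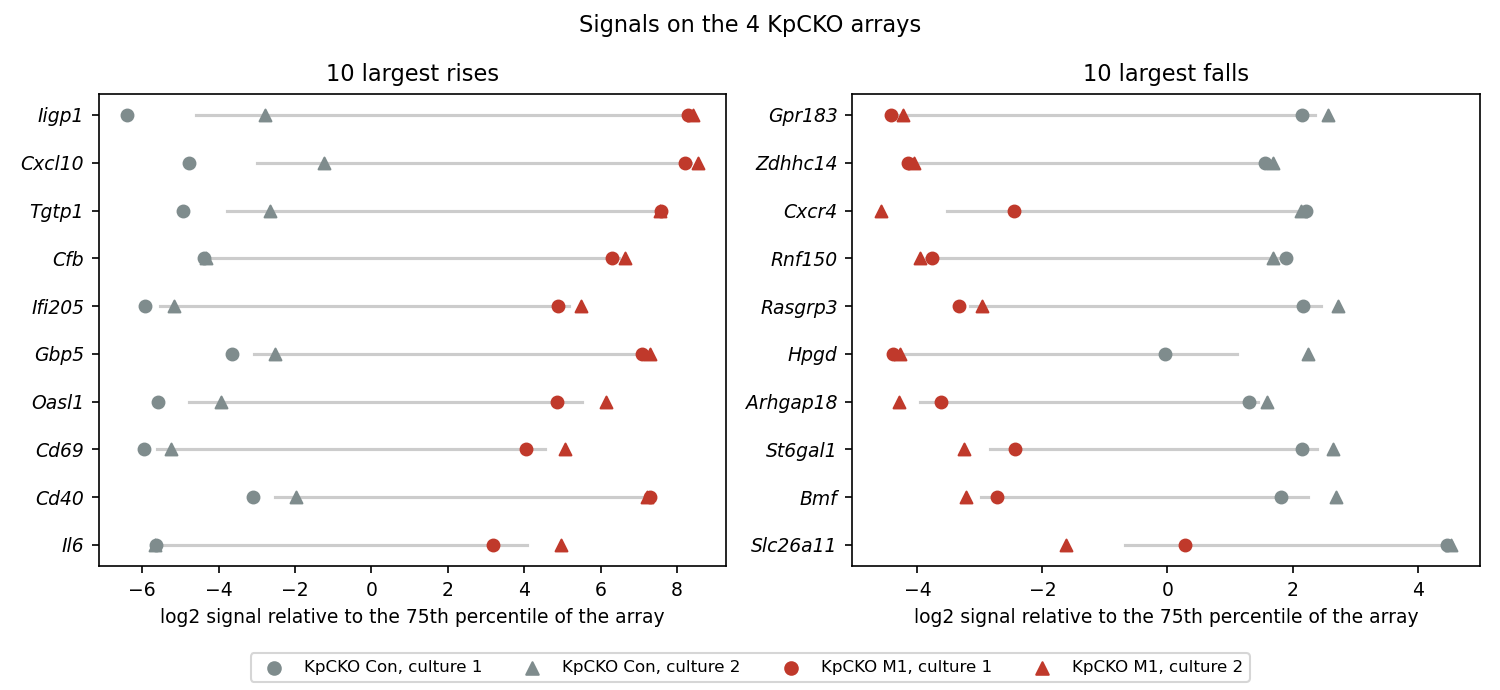
Log2 signals relative to the 75th percentile of the array (x axis) of the 10 genes with the largest rises (left) and the 10 with the largest falls (right) on the 4 KpCKO arrays. Each point is 1 array, circles are culture 1 and triangles culture 2, grey is Con and red is M1, and lines join the group means. The Con and M1 points do not overlap for any gene, and the Con points of *Iigp1*, *Cxcl10* and *Tgtp1* lie far apart.

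Some genes had no signal above background in KpCKO Con, so that only a lower bound of their rise can be given. There were 160 genes at background on both Con arrays and above it on both M1 arrays. *Cxcl9*, a CXCR3 chemokine that responds chiefly to IFNγ, reached 8.66 and 8.70 in M1 and was at least 57504-fold higher than in Con. *Gbp6* was at least 3521-fold and *Gbp2b*, another guanylate-binding protein, at least 195-fold higher. *Ifnb1*, the interferon β gene itself, reached 1.02 and 2.43 and was at least 464-fold higher. *Tnfsf10*, the death ligand TRAIL, was at least 215-fold higher, *Gfi1*, a repressor of transcription, at least 135-fold, *Dnase1l3*, a secreted nuclease, at least 94.8-fold, and *Mab21l3* at least 91.0-fold. These bounds hold for the background correction used here. With normexp the fitted log2 changes of *Ifnb1*, *Tnfsf10*, *Gbp2b*, *Gfi1*, *Dnase1l3* and *Mab21l3* lay between 3.38 and 5.52, that of *Gbp6* was 8.45 and that of *Cxcl9* 12.68, all under the bounds.

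Some sequence motifs were more frequent at the genes that rose, although most of their promoters held none of a given kind, and no test was made. RefSeq promoters, with the build GRCm38.p6, were matched to 1158 of the 1480 genes that rose and have a symbol, some with more than 1 start. Motifs were searched on both strands from 250 bases before to 50 after the start. The ISRE letters, GAAA followed after any 2 bases by GAAA, were found in 7.18% of the 1490 promoters of these genes, in 45 of 338 promoters of genes that rose more than 8-fold (13.3%) and in 35 of 1786 promoters of genes that fell (1.96%), against 455 of 14760 promoters of all genes tested (3.08%). The GAS core TTCNNNGAA was in 9.06% of the promoters of risen genes against 7.22% of all, and the κB letters, GGGA followed after any 2 bases by TTCC, in 40 of 1490 (2.68%) against 221 of 14760. The AP-1 letters TGANTCA were in 8.52% against 5.75%. For TGACNNNGC or TGAGNNNGC, the core of the ARE to which Nrf2 binds, the shares were 28.8% of risen and 30.6% of all. These windows are short and the motifs can overlap, and a match is a description and not a bound site.

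The upstream 250 bases of 4 of the most strongly raised genes are shown, chosen because they hold these letters. *Oasl1* and *Cxcl9* held no ISRE, GAS or κB match in this window. They run 5′ to 3′ on the strand of the gene and end at its start. Capitals mark matches to ISRE, GAS or κB letters. The stretches are chr5:92348890-92349139 (minus strand) for *Cxcl10*, chr3:142496684-142496933 (plus strand) for *Gbp5*, chr11:48992247-48992496 (minus strand) for *Tgtp1* and chr5:30012864-30013113 (plus strand) for *Il6*.
Cxcl10: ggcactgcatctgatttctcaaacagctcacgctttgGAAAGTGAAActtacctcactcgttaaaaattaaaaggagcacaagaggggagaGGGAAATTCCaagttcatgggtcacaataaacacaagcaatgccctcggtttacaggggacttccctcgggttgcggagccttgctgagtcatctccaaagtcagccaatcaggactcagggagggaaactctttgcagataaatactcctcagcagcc
Gbp5: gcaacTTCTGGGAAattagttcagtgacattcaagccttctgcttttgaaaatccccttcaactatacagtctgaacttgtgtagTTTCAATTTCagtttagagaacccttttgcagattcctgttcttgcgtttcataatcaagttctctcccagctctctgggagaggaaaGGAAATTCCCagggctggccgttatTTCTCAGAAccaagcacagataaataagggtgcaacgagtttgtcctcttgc
Tgtp1: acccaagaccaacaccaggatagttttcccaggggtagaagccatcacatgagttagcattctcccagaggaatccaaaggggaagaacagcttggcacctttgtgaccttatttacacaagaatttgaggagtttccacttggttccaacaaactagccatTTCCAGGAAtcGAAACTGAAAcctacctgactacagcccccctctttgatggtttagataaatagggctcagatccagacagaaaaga
Il6: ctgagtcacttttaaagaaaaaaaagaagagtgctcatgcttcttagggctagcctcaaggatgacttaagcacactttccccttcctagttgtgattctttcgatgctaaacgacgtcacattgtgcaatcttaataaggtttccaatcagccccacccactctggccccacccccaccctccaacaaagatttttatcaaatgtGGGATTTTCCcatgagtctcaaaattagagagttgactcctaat
In *Cxcl10* an ISRE match begins 213 bases and a κB match 159 bases before the start. *Gbp5* holds an ISRE match at 165, a κB match at 77 and GAS matches at 245 and 52 bases, and *Tgtp1* a GAS match at 88 next to an ISRE match at 77 bases. *Il6* holds a κB match 44 bases before the start and no ISRE or GAS match.

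Genes were then grouped into 20 lists by their roles, and the share of members that changed was set beside 24.8% higher and 25.4% lower among all genes. The interferon-inducible GTPases, which restrict intracellular microbes, were the list with the largest median change. All 12 were higher in KpCKO M1 by limma's test and rose more than 2-fold in both cultures, with a median change of 8.71 and a range from 4.74 to 12.93. *Gbp4* rose from −7.34 and −6.55, above background on 1 of the Con arrays, to 5.00 and 5.58. The ISRE letters were in 8 of the 9 promoters of this list matched and the GAS letters in 5. In WT the same 12 genes were all higher, with a median change of 7.90.

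**Figure D3:**
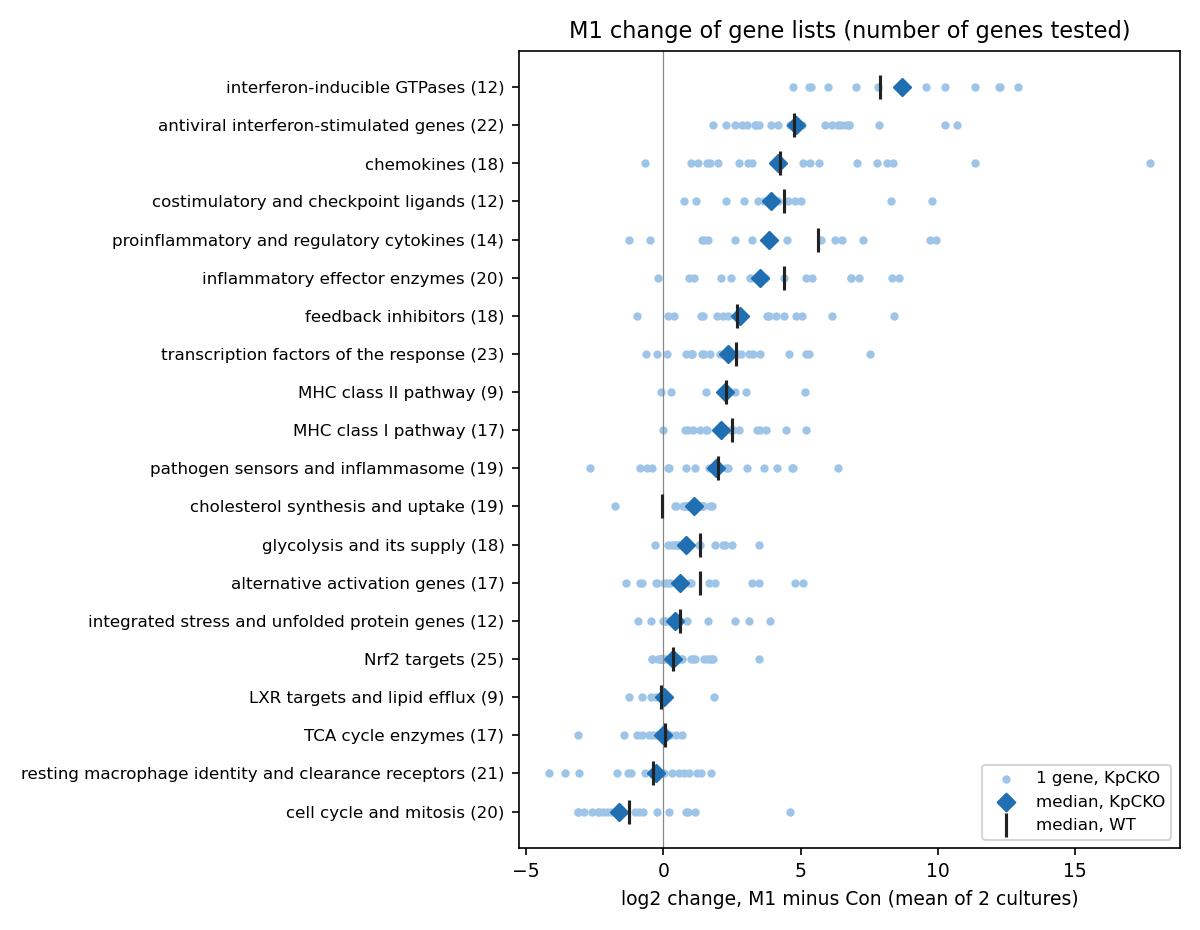
Log2 change from Con to M1 (x axis, mean of 2 cultures) of the genes in 20 lists, with the number of genes tested in brackets. Light points are single genes in KpCKO, diamonds the KpCKO median and vertical bars the WT median. Lists of the interferon and inflammatory response have medians above 1.5 in both genotypes, those of the TCA cycle, LXR targets and resting macrophage genes lie near 0, and cell cycle genes lie below it. Cholesterol synthesis has a median of 1.11 in KpCKO and −0.04 in WT.

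Of the antiviral interferon-stimulated genes, 22 of 22 tested were higher in KpCKO M1, with a median change of 4.82 against 4.78 in WT and a range from 1.81 to 10.71. *Zbp1*, a sensor of Z-form nucleic acid, rose by 8.10 and 7.60, from −2.87 and −1.17 to 5.24 and 6.43. *Ifit2*, which binds viral RNA, rose by 6.56 and 6.99. The interval of the difference in response lay within 2-fold for 2 of the 22 genes, so a difference in the size of the rise is not bounded for most of them. The mean level of the 22 genes was −1.69 and −0.64 in KpCKO Con and 3.15 and 4.92 in KpCKO M1, against 0.16 and 0.63 in WT Con and 5.04 and 5.85 in WT M1. All 22 genes were lower in KpCKO than in WT in both cultures, both in Con and in M1, where this held for 7148 and 9476 of 22165 genes tested. The ISRE letters were in 10 of the 22 promoters of this list.

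The GTPases showed the same lower level in Con and less of it in M1. Their mean level was −2.84 and −1.66 in KpCKO Con and −1.41 and −0.59 in WT Con, and all 12 were lower in KpCKO Con in both cultures (7148 of 22165 genes tested). In M1 the means were 6.43 and 6.55 in KpCKO and 6.78 and 6.92 in WT. The KpCKO rise of the list, 9.27 in culture 1 and 8.21 in culture 2, was therefore above the WT rise of 8.18 and 7.52 from a lower start. These means include *Gbp6*, which was at background in KpCKO Con, so that its level and rise there are not measured sizes. In WT no gene of the list had only a bound. For *Tgtp1* the interval of the difference in response was 0.34 to 3.93 (adjusted p = 0.253), and for *Iigp1* it was −0.19 to 5.48. Within each genotype the Con level was also lower in culture 1, in 12 of 12 genes in KpCKO and 11 of 12 in WT, against 11086 and 9900 of 22165 genes tested. Culture and the sex of the mice cannot be told apart.

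**Figure D4:**
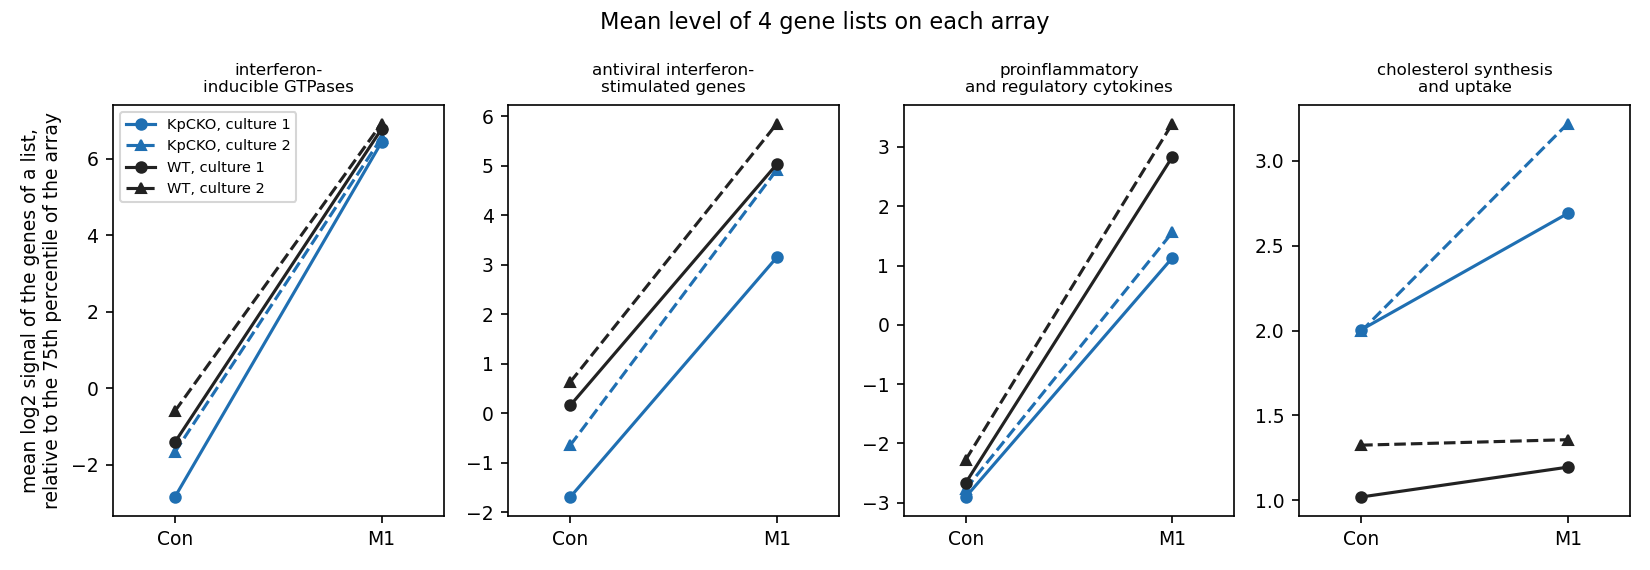
Mean log2 signal of the genes of 4 lists (y axis, relative to the 75th percentile of the array; each panel has its own scale) in Con and M1. Lines join the arrays of 1 genotype and culture, blue for KpCKO and black for WT, circles with solid lines for culture 1 and triangles with dashed lines for culture 2. The GTPases start lower in KpCKO and end little below WT (mean 6.43 and 6.55 against 6.78 and 6.92), the antiviral genes run nearly parallel to WT at a lower level, the cytokines start close together and end lower in KpCKO, and the cholesterol genes rise in KpCKO from a level already above WT.

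Among cytokines 11 of 14 genes tested were higher in KpCKO M1 and 1 was lower, with a median change of 3.87 against 5.65 in WT. *Tnf*, the early cytokine of the LPS response, rose from 0.57 and 0.22 to 7.72 and 7.59, a change of 7.26 (SE 0.381, adjusted p = 2.4e-05). The difference from the WT response was −0.12, with an interval from −1.39 to 1.16, which does not bound it within 2-fold. *Il1b*, the substrate of the inflammasome, rose by 6.58 and 6.43 from −2.16 and −0.12, and here the difference was −0.01 and its interval, −0.77 to 0.75, lay within 2-fold. The M1 level of *Il1b* was 4.42 and 6.31, against 7.77 and 8.88 in WT, whose Con level was higher by a like amount.

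Other cytokines rose in KpCKO by less than in WT. *Il1a* rose by 5.63 and 5.86 in KpCKO and by 8.82 and 8.97 in WT, with a difference of −3.15 (interval −4.00 to −2.30, adjusted p = 0.0505). For *Il6* the difference was −3.44 (interval −5.08 to −1.81, adjusted p = 0.127). All 14 changes were below those of WT by the mean of the cultures (57.1% of all genes), and in 8 the unadjusted p of the difference was under 0.05 (16.4% of all genes), but none passed after adjustment. *Csf3*, the granulocyte growth factor, was above background on 1 of 2 KpCKO M1 arrays and did not pass the test (adjusted p = 0.131), and in WT it was at least 14.2-fold higher in M1. *Il10*, an anti-inflammatory cytokine, fell by 1.25 (SE 0.16, adjusted p = 0.000761) in KpCKO, from −4.05 and −3.47 to −5.03 and −4.99. With the normexp correction of the background this change was −0.34 and did not pass (adjusted p = 0.427). That of *Il1a* was then 3.24.

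Chemokines rose as a group, with 16 of 18 genes higher, 1 lower and a median change of 4.17 against 4.27 in WT. The neutrophil attractant *Cxcl3* rose by 7.83 and 8.90 in KpCKO, from −6.14 and −6.35 to 1.69 and 2.55, and reached a higher level than in WT M1, where it was at −0.53 and −0.04. *Ccl12*, a monocyte attractant, rose by 7.91 and 8.38 from a level above background on 1 of 2 Con arrays, and by 5.10 with the normexp correction. *Ccl6* fell by 0.66 (adjusted p = 0.0234), a call that was lost in 6 of 16 alternative settings. *Ccl17*, a ligand of CCR4 on T cells, changed by 0.83 and 1.19 and did not pass the test (adjusted p = 0.0588). The change was larger in KpCKO than in WT in 10 of the 18 genes and smaller in 8, where 57.1% of all genes had a smaller one.

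**Figure D5:**
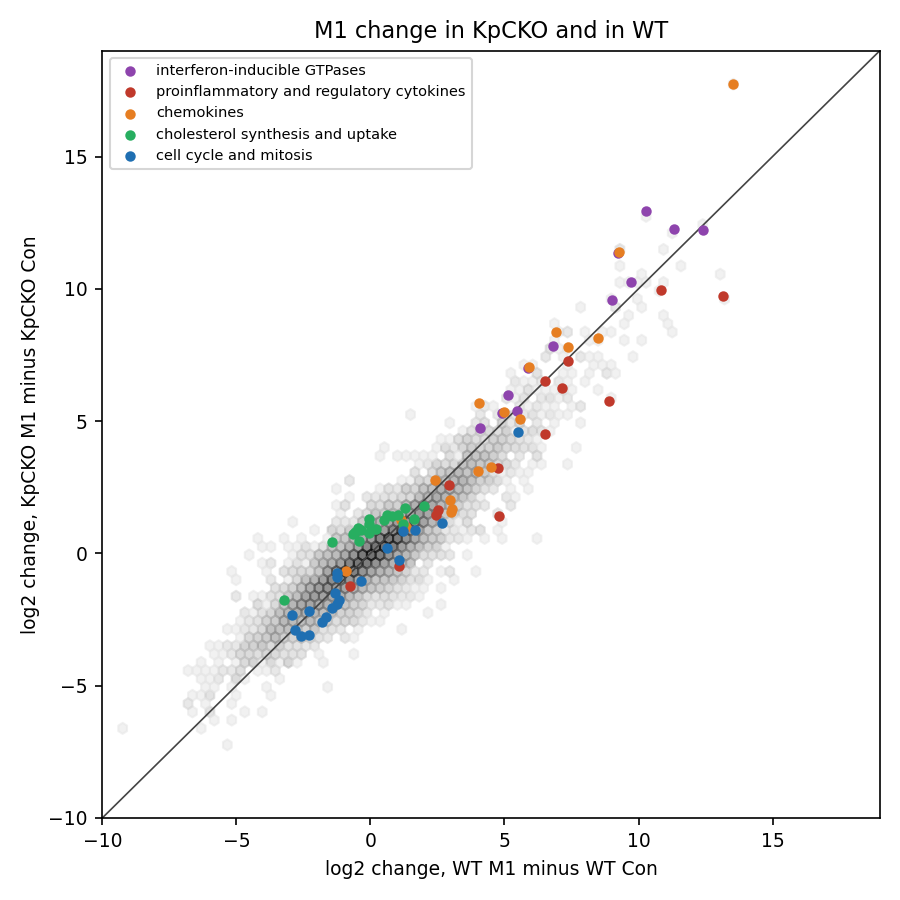
Log2 change from Con to M1 in WT (x axis) and in KpCKO (y axis), each the mean of 2 cultures. Grey shading gives all genes, coloured points the genes of 5 lists, and the line equal change. Of the GTPases 10 of 12 lie above the line, as do 16 of 19 cholesterol genes. The 14 cytokines lie below it, as do 57.1% of all genes, and most cell cycle genes lie below 0 in both genotypes. The topmost point is *Cxcl9*, which was at background in Con.

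The enzymes with which M1 macrophages act on microbes and tissue rose in 19 of 20 cases, with a median change of 3.53 against 4.41 in WT. *Acod1*, which makes itaconate from aconitate, rose from 0.09 and 0.80 to 9.04 and 9.06, a change of 8.60 (SE 0.279, adjusted p = 6.5e-06). *Saa3*, an acute phase protein, rose by 8.42 and 8.26, and *Ptgs2*, the inducible cyclooxygenase, by 5.93 and 7.77. *Nos2*, the inducible nitric oxide synthase, was at background in Con and at −0.87 and −1.28 in M1, so that it was at least 66.6-fold higher, while its fitted change with normexp was 3.04, under that bound. In WT the bound for *Nos2* was at least 164-fold. *Arg2*, the mitochondrial arginase, changed by 0.67 and −1.10 and did not pass the test (adjusted p = 0.658). Of the 20 genes, 17 had a change below that of WT, against 57.1% of all genes.

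Most genes of antigen presentation rose. In the MHC class I pathway 16 of 17 genes were higher, with a median change of 2.10 against 2.52 in WT. *Tap1*, the peptide transporter, rose by 5.75 and 4.65 from −0.65 and 0.39, and *Nlrc5*, the transactivator of MHC class I, by 4.39 and 4.53. *Psmb9*, a subunit of the immunoproteasome, rose by 3.72 and 3.33. The chaperone *Calr* changed by −0.28 and 0.29 (adjusted p = 0.989). In the MHC class II pathway 8 of 9 genes were higher, with a median change of 2.26 against 2.29 in WT. *Ciita*, its transactivator, rose from −1.76 and 0.19 to 4.90 and 3.87, by 6.66 in culture 1 and 3.68 in culture 2. *H2-Ab1*, the β chain of the class II molecule I-A, rose by 2.36 and 2.34 and *H2-DMa*, of the peptide editor H2-M, by 3.25 and 2.77. *Ifi30*, the lysosomal thiol reductase, changed by 0.09 and −0.24 (adjusted p = 0.817). This pathway was the one of those named so far in which the M1 levels were closest between the genotypes, with a mean of 4.73 and 4.57 in KpCKO and 4.75 and 4.58 in WT.

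Of 12 costimulatory and checkpoint ligands 11 were higher in KpCKO M1, with a median change of 3.93 against 4.39 in WT. *Cd274*, which encodes PD-L1, rose from 2.12 and 1.55 to 7.27 and 6.42, a change of 5.01 (SE 0.288, adjusted p = 3.27e-05). *Pdcd1lg2*, which encodes PD-L2, rose by 5.28 and 4.32 from a level above background on 1 Con array, and by 2.18 with the normexp correction. *Cd70* changed by 1.66 and 0.73 and did not pass the test (adjusted p = 0.0969).

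The transcription factors of the response were higher in 20 of 23 cases, and 14 of the 23 had an interval of the difference from WT within 2-fold, a share near the 52.7% of all genes. *Irf1*, the IFNγ-induced activator, rose from 3.71 and 4.47 to 8.73 and 8.59, a change of 4.57 (SE 0.255, adjusted p = 2.93e-05), with a difference from WT between −0.86 and 0.85. *Batf2*, an AP-1 family factor of the IFNγ response, rose by 8.08 and 7.00, and *Irf7*, which amplifies interferon production, by 4.62 and 5.81. *Maff*, a small Maf protein and partner of Nrf2, rose by 5.24 and 5.37. *Atf3*, a stress-induced repressor of cytokine genes, did not follow. Its level was 6.35 and 5.99 in KpCKO Con and 6.04 and 5.86 in KpCKO M1, a change of −0.22 (adjusted p = 0.375). In WT it changed by 0.78 and 1.06, to 6.19 and 6.52, and both KpCKO Con arrays were above both WT Con arrays.

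Genes that limit the response rose with it. Of 18 feedback inhibitors 16 were higher and none was lower, with a median change of 2.80 against 2.69 in WT. Gene by gene the change was below that of WT in 15 of the 18, against 57.1% of all genes. The median difference in response was −0.33. *Socs1*, the inhibitor of JAK kinases that is induced by IFNγ, rose from −0.66 and −1.29 to 7.40 and 7.48, a change of 8.41 (SE 0.191, adjusted p = 2.31e-06), and *Socs3*, which limits signals of IL-6, by 6.45 and 5.84. *Nfkbie*, an inhibitor of NF-κB, rose by 5.34 and 4.35, and *Cish*, of the SOCS family, by 5.11 and 5.04. *Dusp1*, a phosphatase of MAP kinases, changed by −1.73 and −0.23 (adjusted p = 0.221).

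Sensors of microbes were more mixed, with 12 of 19 genes higher and 3 lower in KpCKO M1. *Clec4e*, the receptor Mincle, rose from 0.79 and 2.31 to 7.76 and 8.04. *Casp4*, which encodes the mouse caspase-11 that senses LPS in the cytosol, rose by 5.01 and 4.42, and the peptidoglycan sensors *Nod1* and *Nod2* rose by 4.97 and 4.39, and by 4.58 and 3.68. *Tlr8* fell by 2.97 and 2.35, to −3.91 and −3.01. *Tlr2* rose by 2.81 in culture 1 and by 0.53 in culture 2 and did not pass the test (adjusted p = 0.0989).

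The 10 largest falls were those of genes with varied roles. *Gpr183*, the receptor for 7α,25-dihydroxycholesterol, went from 2.14 and 2.56 in KpCKO Con to −4.42 and −4.23 in KpCKO M1, a fall of 6.68 on the log2 scale (change −6.68, SE 0.128, adjusted p = 1.53e-06). *Cxcr4*, the receptor for CXCL12, went from 2.22 and 2.14 to −2.46 and −4.58. *Hpgd*, which inactivates prostaglandins, went from −0.04 and 2.25 to −4.39 and −4.28, and here the spread lay in Con. The signalling genes *Rasgrp3*, an activator of Ras and Rap, and *Arhgap18*, a GTPase-activating protein, changed by −5.51 and −5.70, and by −4.93 and −5.88. *Zdhhc14*, a palmitoyltransferase, changed by −5.70 and −5.73, *Rnf150*, a RING finger protein, by −5.67 and −5.63, *St6gal1*, a sialyltransferase, by −4.57 and −5.91, and *Slc26a11*, an anion transporter, by −4.20 and −6.16. *Bmf*, a proapoptotic BH3 protein, changed by −4.55 and −5.92 by its brightest probe, while another probe changed by 0.01 and the mean of its probes by −2.87. The Con and M1 arrays did not overlap, which the choice of the largest falls fixes. The WT changes of the 10 genes lay between −3.76 and −6.96.

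Among 21 genes of macrophage identity and clearance 7 were lower and 6 higher, shares near those of all genes, with a median change of −0.26 against −0.36 in WT. *Cx3cr1*, the fractalkine receptor, changed by −3.87 and −4.47 and the haemoglobin scavenger receptor *Cd163* by −3.33 and −2.82 (−0.82 with the normexp correction). *Mertk* and *Axl*, receptors for apoptotic cells, rose by 1.39 and 2.05, and by 1.20 and 1.55, and *Spi1*, the gene of PU.1, by 1.29 and 1.19. Of 20 cell cycle genes 13 were lower and 4 higher, with a median change of −1.63 against −1.25 in WT. *Bub1b*, of the spindle checkpoint, changed by −2.59 and −3.66, *Ccna2*, cyclin A2, by −2.70 and −3.51 and *Aurkb*, a mitotic kinase, by −2.86 and −2.94 (−1.80 with the normexp correction). *Cdkn1a*, the cell cycle inhibitor p21, rose from 1.68 and 2.19 to 6.45 and 6.63. *Mki67*, commonly read as a marker of dividing cells, was higher in M1 by 1.34 and 0.96 (adjusted p = 0.0198, up to 0.123 among the alternatives).

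Of 17 alternative activation genes 6 were higher and 1 was lower, against 24.8% higher and 25.4% lower among all genes. In WT 8 were higher and 1 lower. The 6 include *Ccl22* and *Pdcd1lg2*, which M1 stimuli raise as well. *Ccl22* rose by 4.91 and 5.27 (2.33 with the normexp correction) and *Tfec*, a macrophage factor induced by IL-4, by 3.55 and 3.39. *Ccl24*, an eosinophil attractant, rose by 3.61 and 2.89, and *Myc* fell by 1.37 on the log2 scale (SE 0.206). *Arg1*, arginase 1, was at −6.80 and −6.53 in Con and at background in M1, and its change did not pass the test (adjusted p = 0.061).

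Metabolic genes moved by less. Glycolysis and its supply had 14 of 18 genes higher and none lower, with a median change of 0.84 against 1.34 in WT, and the change was below that of WT in 17 of the 18, against 57.1% of all genes. The platelet-type phosphofructokinase *Pfkp* rose by 3.39 and 3.57 (WT 4.43 and 4.57), with a difference of −1.02 (interval −1.34 to −0.70, adjusted p = 0.0677). The lactate exporter *Slc16a3* rose by 2.25 and 2.28, *Hk3*, a hexokinase, by 2.09 and 2.88 and the glucose transporter *Slc2a1* by 1.97 and 2.39. Of 17 genes in the TCA cycle list 6 were lower and 2 higher. The list also holds *Idh1* and *Mdh1*, whose enzymes are cytosolic, so that its counts are not of the cycle alone. *Idh1*, the cytosolic isocitrate dehydrogenase, changed by −2.93 and −3.29 and the mitochondrial *Idh2* by −1.50 and −1.36, and 16 of the 17 genes had an interval of the difference from WT within 2-fold, against 52.7% of all genes.

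Cholesterol synthesis and uptake had a larger median change in KpCKO than in WT. Here 16 of 19 genes were higher in KpCKO M1 and 1 was lower, with a median change of 1.11, while in WT 7 were higher and 3 lower, with a median of −0.04. *Cyp51*, the lanosterol demethylase, went from 0.95 and 0.84 in KpCKO Con to 2.12 and 2.58 in KpCKO M1, a rise of 1.46 (SE 0.231, adjusted p = 0.00192). *Dhcr7*, of the last step, changed by −2.09 and −1.43 in KpCKO and by −3.19 and −3.29 in WT. The median difference in response of the 19 genes was 0.82, against −0.07 over all genes. For 13 of them the unadjusted p of the difference was under 0.05, against 16.4% of all genes, and none passed after adjustment over all genes. The mean level of the list was 2.004 and 1.995 in KpCKO Con and 2.69 and 3.22 in KpCKO M1, against 1.02 and 1.32 in WT Con and 1.20 and 1.36 in WT M1. In neither state did any gene of the list have lower levels in KpCKO in both cultures.

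Nrf2 targets were high in KpCKO before the stimulus and added to it in part. Their mean level was 5.28 and 4.90 in KpCKO Con and 5.88 and 5.59 in KpCKO M1, against 3.76 and 3.68 in WT Con and 4.50 and 4.31 in WT M1. Of 25 genes 13 were higher in KpCKO M1 than in KpCKO Con and 1 was lower, with a median change of 0.34, against 0.35 in WT. *Slc7a11*, the cystine transporter, rose from 0.61 and −0.68 to 3.85 and 3.08, *Txnrd1*, thioredoxin reductase, by 1.69 and 1.91, *Txn1*, thioredoxin, by 1.52 and 2.02 and *Abcc1*, an exporter of glutathione conjugates, by 1.71 and 1.71. *Nqo1*, the quinone reductase often read as the measure of Nrf2 activity, was at 1.29 and 1.48 in KpCKO Con and 1.46 and 1.79 in KpCKO M1 (adjusted p = 0.104), far above the WT levels between −2.11 and −1.58. *Gstp1* changed by −0.40 and −0.45, a call that was lost in 6 of 16 alternative settings. After quantile normalization the change was 1.09 for *Txnrd1* and 1.06 for *Txn1*.

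Of 12 stress genes 4 were higher and 1 was lower, and the 4 are genes of the ATF4 branch. *Ddit3* and *Sesn2*, which are listed too and belong to that branch, were not among the 4. *Chac1*, which breaks down glutathione, rose by 4.39 and 3.41, *Asns*, asparagine synthetase, by 3.18 and 3.07, *Trib3* by 3.39 and 1.86 and *Atf4* itself by 1.74 and 1.49. Without the culture as a block *Trib3* and *Atf4* did not pass (adjusted p = 0.129 and 0.0527). Each of the 4 was higher in culture 1 than in culture 2 on the KpCKO Con arrays as well as on the KpCKO M1 arrays. *Herpud1*, of protein degradation at the endoplasmic reticulum, changed by 1.66 and 0.04 (adjusted p = 0.151). Among 9 LXR targets *Mylip*, a ubiquitin ligase, rose by 1.86 and 1.84 (1.23 after quantile normalization), and the lipid exporter *Abca1* changed by −0.55 and −1.96 (adjusted p = 0.0347, lost in 7 of 16 alternative settings).

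How much of the response was kept in KpCKO was read by setting its changes beside those of the WT arrays. The changes come from different arrays, but limma's test takes the spread of a gene from all 12 arrays for both genotypes. The M1 arrays of both genotypes lay on 1 slide and the Con arrays on another, so that a difference between slides would count as kept. By the rule of a 2-fold change in both cultures, 3188 genes rose in WT (14.3%) and 3237 fell (14.5%). Of the genes that rose in KpCKO 1957 also rose in WT, which is 88.0% of the KpCKO list and 61.4% of the WT list, and of those that fell 2043 also fell, 85.4% and 63.1%. Among the 457 genes with a rise of more than 8-fold in both KpCKO cultures, 446 rose in WT, and among the 168 with such a fall 165 fell. By limma's test 14129 of 22356 genes changed in WT (63.2%), of which 7720 were higher (34.5%) and 6409 lower (28.7%). Of the 5545 genes higher in KpCKO 5114 were higher in WT (92.2%), and these make up 66.2% of the WT list. For genes that were lower the number was 5078, or 89.3% and 79.2%. The calls had opposite signs for 41 genes. Across all genes the changes of the genotypes, each the mean of 2 cultures, correlated at r = 0.921, with the same sign for 87.6% of genes. Between a single KpCKO and a single WT culture r was 0.826 to 0.905, with the same sign for 82.5% to 86.3%. These are the values to set beside the 0.903 between the single KpCKO cultures.

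An overlap of calls does not bound the size of a difference, for which the interval of the difference in response was used. The test of the difference itself passed for 16 of 22354 genes (0.0716%), with 3662 at an unadjusted p under 0.05. The 95% interval lay wholly within 2-fold, between −1 and 1, for 6365 of the 11229 genes changed in KpCKO (56.7%), against 52.7% of all genes. It did so for 730 of the 2223 genes that rose by the 2-fold rule and 802 of the 2393 that fell, so that for most strongly changed genes these arrays leave the difference unbounded at 2-fold. The median distance from the estimate to either bound of its interval was 0.598. Genes that rose in KpCKO had a median change of 2.06 in KpCKO and 2.40 in WT, and genes that rose in WT had 1.47 and 1.96, so that with either choice the median was larger in WT.

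The most tightly kept large changes were those of 5 genes among the 325 with a symbol that changed more than 8-fold in both KpCKO cultures and were above background on all 8 arrays. Of the 325, 73 had an interval within 2-fold. *Sod2*, the mitochondrial superoxide dismutase and a target of NF-κB, went from 5.43 and 5.50 to 9.09 and 9.09 in KpCKO and from 5.77 and 5.98 to 9.52 and 9.63 in WT, with a difference of −0.07 (interval −0.41 to 0.27). *Lmo4*, a LIM-only cofactor, rose by 3.33 against 3.44 in WT as the mean of the cultures, and *Tapbpl*, the peptide editor TAPBPR, by 3.87 and 3.59 in the cultures against 3.83 and 3.60. *Ier5l*, an immediate early response gene, changed by −3.05 and −3.14 against −3.02 and −2.93. *Fbxl22*, an F-box protein, rose by 3.03 and 3.05 against 2.98 and 3.07 by its brightest probe, whereas its probes disagreed in sign, with another at −0.33 and the mean of the probes at 1.36.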

How the data were processed

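RNA of BMDMs from 2 cultures was measured on 12 arrays, and 4 KpCKO and 4 WT arrays carry the results. Scans were read by the authors in Feature Extraction 10.7.3.1 (Agilent), and the deposited intensity values, already background-subtracted, cover 43379 spots an array, with flags for signal well above background and for outliers. They carry no scaling between arrays. The deposited matrix of log2 values, normalized by the authors with GeneSpring, differs from the log2 intensities only by each array's 75th percentile and a centre per probe (slopes 0.999623 to 1.00036), and served as an alternative.

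Outlier spots were left out, spots of a probe averaged, and each array's 75th percentile subtracted from its log2 intensities. By accession 26690 of 41174 probes were matched to 18217 symbols of RefSeq (GRCm38.p6), and the others kept their identifier. The brightest probe stood for a gene. Genes were kept if both arrays of any of the 6 groups showed them well above background, and these 22367 genes were fitted with limma 3.58.1 in R 4.3.3, in a single model of 6 groups and culture (5 residual and 1.92 prior degrees of freedom), with a Benjamini-Hochberg adjusted p of 0.05. Of these 22362 could be tested in KpCKO. For a gene dim on both arrays of a group the fold is a lower bound. It sets the bright group's mean against the gene's own signal on each dim array, or against the dimmest signal well above background there if that is higher. Exact tests were not used, since 2 arrays against 2 cannot pass the threshold. The fit was also run on data simulated with independent spread between arrays and no slide effect. The outcome of that run is not used here.

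The series description says that each culture held 1 mouse of each genotype, which pairs the arrays. Over 22084 genes the deviations of groups from the same culture correlated between 0.162 and 0.597 in 15 pairs of groups, and at 0.468 between KpCKO Con and M1. The members, lists and rules were chosen with earlier results of these data known. Genes named are the 10 largest rises and falls, the 8 largest bounds, 11 genes the study names, up to 6 per list, and the 5 largest differences each way and 5 most tightly kept changes, 145 in all. Of the 20 lists, *Il12b*, *Lif*, *Cxcl11*, *Mx1*, *Mx2*, *Pdia3*, *H2-Eb1*, *Nfkb1*, *Tlr5*, *Clec7a*, *Cd68*, *Apoc2*, *Fh1*, *Rrm2* and *Ccnd1* were not analysed here, as no probe matched, and *Il23a*, *Csf2*, *Aim2* and *Alox15* were too dim. The alternatives were quantile normalization, normexp with an offset of 50, the authors' matrix, other filters, floors, probes and models, the methods' t-test and leaving out each array. Python 3.11.15 and matplotlib 3.10.9 made the tables and plots. Some genes of the lists are counted in them but not reported here by name.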

Additional observations from a re-analysis of the deposited data

Results flagged for a closer look

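For 16 genes limma found a KpCKO response to M1 unlike that of WT (adjusted p between 0.0224 and 0.0486 for the 10 named here). Of these, *Sel1l3*, *Ptchd1* and *Vsir* were above background on all 8 arrays. *Sel1l3* was at −2.28 and −1.90 in KpCKO Con and −2.28 and −2.47 in KpCKO M1, and fell from −1.34 and −0.98 to −4.14 and −4.45 in WT, a difference of 2.85. *Ptchd1* changed by −0.25 and 0.11 in KpCKO and by −2.14 and −1.88 in WT, a difference of 1.94. *Vsir*, the checkpoint protein VISTA, fell from 4.62 and 4.84 to 2.72 and 3.11 in KpCKO and changed by −0.28 and −0.19 in WT, a difference of −1.59.

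The other 7 were at background in at least 1 group, so that the fitted differences are not measured sizes. They were 3.33 for *Adh7*, a retinol dehydrogenase that rose by 2.37 and 2.97 in KpCKO, 2.43 for *Cdon* and 3.95 for *Clvs2*, which was at background on all 4 KpCKO arrays. They were −5.76 for *Cstdc2*, −4.43 for *Bnipl*, −4.14 for *Rfx6* and −2.50 for *Gimap5*, and these 4 were at background on all 4 KpCKO arrays.

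In 4 named genes both KpCKO cultures moved one way and both WT cultures the other, while the test of the difference did not pass. *Atf3* changed by −0.31 and −0.13 in KpCKO and by 0.78 and 1.06 in WT (difference −1.14, adjusted p = 0.157). *Abcg1*, a lipid exporter, changed by −0.18 and −0.73 against 0.56 and 0.92 (difference −1.19, adjusted p = 0.177). The sterol genes *Mvd* and *Nsdhl* changed by 0.23 and 0.60 against −1.10 and −1.77 (difference 1.85, adjusted p = 0.0896), and by 0.15 and 0.78 against −0.50 and −0.34 (difference 0.89, adjusted p = 0.179).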

How the results depend on the processing

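Of the 118 named genes called in KpCKO, 99 were tested in all 16 alternatives and 86 of these kept the call in each. The other 19, not above background on all 12 arrays, were tested in 15, and 16 of them kept it. Of the 118, 109 kept the call without any 1 of the 4 KpCKO arrays. With normexp 6951 genes changed in KpCKO (3449 higher, 3502 lower), 9298 in WT and 6346 the same way in both, and 1312 fell by the 2-fold rule. Asking for more than 2-fold as well, these counts were 5707 (2741 and 2966), 7971 and 5079, and 1932 changed genes were kept within 2-fold. A fold above 4 left 937 rises and 604 falls. The methods' t-test gave 6528 genes at an unadjusted p under 0.05 (3280 higher, 3248 lower) and 0 after Benjamini-Hochberg adjustment, where limma gave 11229. With no replicate block, which ignores the pairing, 8710 genes changed, 3736 were kept within 2-fold and 12 differed between the genotypes.

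The count of 16 differing genes was 2 after quantile normalization, 25 in the authors' matrix, 55 above background on all 12 arrays and 55 with a floor, 1 with the mean of probes, 1 with the mouse as a random block, 108 with trended and robust variances, and 0 with normexp, with no filter on dim probes or with the 8 Con and M1 arrays alone. Leaving out 1 array gave 0 to 537, with 537 when culture 1 lost its WT M1 array. It gave 8063 to 9815 changed genes in KpCKO (4011 to 4736 higher, 4052 to 5079 lower), 10757 to 14112 in WT, 7575 to 9980 in both, and 3723 to 6548 kept within 2-fold, with 3723 without the KpCKO Con array and 4051 without the KpCKO M1 array of culture 2. A single culture gave 2694 to 3089 rises and 2748 to 3680 falls, the latter in culture 2. *Calr* was at −0.51 and *Cs* at −0.0203 after quantile normalization, *Fosl2* at 0.49 with the mean of its probes and *Bnipl* at 0.64 with a floor, each against the opposite sign otherwise. The cause of these shifts was not tested.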

Other observations

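Of the 41 genes that limma called in opposite directions in KpCKO and WT, 29 have a symbol and 18 of those were above background on all 8 arrays. They were chosen after their values were seen. *Ndrg1*, a stress- and hypoxia-induced gene, changed by −0.90 and −1.99 in KpCKO and by 1.05 and 0.77 in WT, and *Satb1*, a chromatin organizer, by −0.78 and −1.22 against 1.03 and 1.89. *Ier2*, an immediate early gene, changed by −0.58 and −0.62 against 0.51 and 1.05. In the other direction, *Rhob*, a small GTPase, changed by 0.42 and 0.98 in KpCKO and by −1.16 and −1.32 in WT, and *Nlrc4*, an inflammasome adaptor, by 0.42 and 0.71 against −0.49 and −0.62. None of these 5 passed the test of the difference after adjustment (adjusted p between 0.0616 and 0.124).

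*Ddit4l*, an inhibitor of mTOR signalling, changed by 0.65 and 0.64 in KpCKO and by −0.76 and −1.10 in WT, and it passed the test of the difference (1.57, adjusted p = 0.0479).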
